A study of Mus musculus with 15 samples.

Results

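The 10 genes described here encode the cytosolic HSP70, HSP90 and HSP40 chaperones and 2 of their partners in left ventricular cardiomyocytes of mice. They were listed by symbol as Hspa1a, Hspa1b, Hsph1, Hsp90aa1, Dnajb1, Dnajb4 and Bag3, classed as heat-inducible from textbook knowledge, and Hspa8, Hsp90ab1 and Dnaja1, classed as constitutive. A gene was measured by the probe set that the array annotation assigns to it alone, and where there were several by the one with the highest mean. Of the 10 genes, 8 had such a probe set, among 19937 genes in all, and all 8 were above the filter on signal that left 12102 genes for the tests. Hspa1b was represented only by a probe set annotated to both Hspa1a and Hspa1b, and Hsp90ab1 was not analysed here, so neither enters a count.

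The cells came from male C57Bl/6NT mice of 8 to 9 months, which received a whole-body dose of 90 cGy of 1 GeV protons or a sham exposure. By the titles, 12 arrays were from proton-exposed animals at days 1 (n = 2), 3 (n = 3), 5 (n = 3), 12 (n = 2) and 26 (n = 2), and 3 were from sham animals, 2 at day 1 and 1 at day 3. The cells were released with collagenase and selected by stepwise return of calcium, and by the labels some inflammatory or endothelial cells could remain. Days 5, 12 and 26 had no sham of their own, so the time after exposure and the exposure itself cannot be told apart there, and the 3 sham samples served as the control of each day. Whether a group's arrays were made from separate mice is not stated in the labels, so p-values measure only the spread between these samples. Where the series' design text gives other days, those of the titles were kept.

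Values are log2 signals, on which a difference of 1 is a doubling, and the number of arrays limits their precision. Array medians were between 4.90 and 5.16. The first 2 arrays of proton day 5 had almost equal values (Spearman 0.989, where no other pair exceeded 0.978) and were combined into their mean, giving 14 samples. The 10 ventricular cardiomyocyte markers, among them Myh6, Tnnt2 and Actc1, had a mean signal between 11.85 and 11.98 in every sample. In such bulk samples, fewer cells of a type and less RNA per cell cannot be told apart.

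HSP70 proteins bind exposed hydrophobic stretches of unfolded proteins and release them in a cycle driven by ATP. HSP40 proteins, which carry a J domain, deliver substrates and stimulate the ATPase, nucleotide exchange factors such as HSPH1 and BAG3 reset the cycle, and HSP90 takes over clients such as kinases and steroid receptors. Under heat and other proteotoxic stress the factor HSF1 binds inverted repeats of GAA, the heat shock element, and raises the transcription of the inducible members, while the constitutive members work in unstressed cells. In heart muscle, BAG3 also takes part in the turnover of damaged sarcomere proteins at the Z disc.

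The sequences before the start sites are shown as a description, and because the 2 HSP70 genes are nearly identical copies. Any relation of these sequences to how the chaperones varied over the samples was not tested. The RefSeq promoter table of GRCm38.p6 held 7 of the 10 genes, all but Hspa8, Hsp90aa1 and Hsp90ab1, in 12 windows. Each of the first 4 sequences is the 250 bases before a start site, written 5′ to 3′ along the gene. Hspa1a is at chr17:34972157-34972406, minus strand, Hspa1b at chr17:34959239-34959488, minus strand, Dnajb1 at chr8:83607925-83608174, plus strand, and Dnaja1 at chr4:40722218-40722467, plus strand. The last 2 are 30-base stretches, from chr5:149636351-149636380, minus strand for Hsph1 and chr3:152193841-152193870, minus strand for Dnajb4. Capitals mark a pair of inverted heat shock units, GAANNTTC or TTCNNGAA, where N is any base; the longer form of 3 units is GAANNTTCNNGAA or TTCNNGAANNTTC, each of which contains both pairs.
Hspa1a: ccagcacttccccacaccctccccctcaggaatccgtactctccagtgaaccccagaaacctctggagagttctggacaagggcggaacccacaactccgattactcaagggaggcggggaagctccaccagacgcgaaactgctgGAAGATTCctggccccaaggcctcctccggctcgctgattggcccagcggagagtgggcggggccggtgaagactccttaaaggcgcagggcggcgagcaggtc
Hspa1b: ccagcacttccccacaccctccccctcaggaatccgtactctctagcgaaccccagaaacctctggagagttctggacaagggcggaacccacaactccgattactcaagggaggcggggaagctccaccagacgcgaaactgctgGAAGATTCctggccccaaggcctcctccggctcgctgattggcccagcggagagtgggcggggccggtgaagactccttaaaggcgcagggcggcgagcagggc
Dnajb1: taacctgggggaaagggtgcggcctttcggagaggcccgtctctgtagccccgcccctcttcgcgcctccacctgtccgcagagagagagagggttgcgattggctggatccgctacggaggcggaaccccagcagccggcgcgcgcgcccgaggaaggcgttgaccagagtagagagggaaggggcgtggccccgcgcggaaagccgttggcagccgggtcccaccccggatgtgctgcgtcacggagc
Dnaja1: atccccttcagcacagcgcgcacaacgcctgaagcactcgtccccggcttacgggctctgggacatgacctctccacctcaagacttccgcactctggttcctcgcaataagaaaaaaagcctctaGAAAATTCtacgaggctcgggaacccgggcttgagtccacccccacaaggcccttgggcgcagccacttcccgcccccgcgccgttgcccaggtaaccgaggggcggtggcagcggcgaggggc
Hsph1, stretch around the match: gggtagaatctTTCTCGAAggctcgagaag
Dnajb4, stretch around the match: ttcgttcgctgTTCTAGAAagtacagagac

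Hspa1a and Hspa1b shared 247 of 250 bases (98.8%) and the match GAAGATTC, whose first base was 104 bases before the start. Dnaja1 had GAAAATTC 124 bases before its first start. Hsph1 had TTCTCGAA 33 or 54 bases before its 2 listed starts, and Dnajb4 had TTCTAGAA 14 bases before one of its 2 starts. No pair was found in the windows of Dnajb1 or Bag3, which says only that these letters are not in those windows. Each pair is its own reverse complement and the longer forms are each other's, so the search covers both strands. A pair was thus present for 5 of the 7 genes and in 12.84% of all 32851 windows (14.5% of genes), and 3 units in a row were found for 0 of the 7 genes and in 0.466% of windows. A match is a description and not evidence of binding.

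The highest chaperone signals of the series were those of day 26. There Hsph1 and Bag3 lay 1.70-fold and 1.43-fold above the sham mean, and Hspa1a and Dnajb1 2.19-fold and 2.25-fold above it, the latter pair with sham samples that themselves spanned 4.07-fold and 5.77-fold. No chaperone of the 8 passed an adjusted p of 0.05 in any comparison by limma with Benjamini-Hochberg adjustment over all 12102 genes, and few genes of any kind did. The share of all genes called, beside 0 of 8 chaperones each time, was 0% for day 1 against sham, then 0.00826%, 0.0496%, 0% and 0.0413% for days 3, 5, 12 and 26. Pooled over all proton days it was 0.0248%, and for late (days 12 and 26) against early days (1 and 3) it was 0.00826%. The F-test over the 5 days against sham called 0.0248% of genes and the F-test among the 5 proton days 0%. At an unadjusted p under 0.05 the counts over all genes were 666, 1072, 1088, 969 and 1727 for the 5 days in order, and 1458, 1602, 1154 and 1020 for the other 4 comparisons. With array weights, and with a marker score of endothelial cells, fibroblasts and macrophages as a covariate, Bag3 and Hsph1 passed at day 26 (limma adjusted p of 0.0233 and 0.0165, then 0.0121 and 0.0413). These settings called 309 and 152 of the 12102 genes at day 26, where the fit used here called 5. Other settings moved the 2 genes the other way: without sham day 1 replicate 2 neither passed (limma adjusted p of 0.113 for Bag3 and 0.126 for Hsph1).

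**Figure D1:**
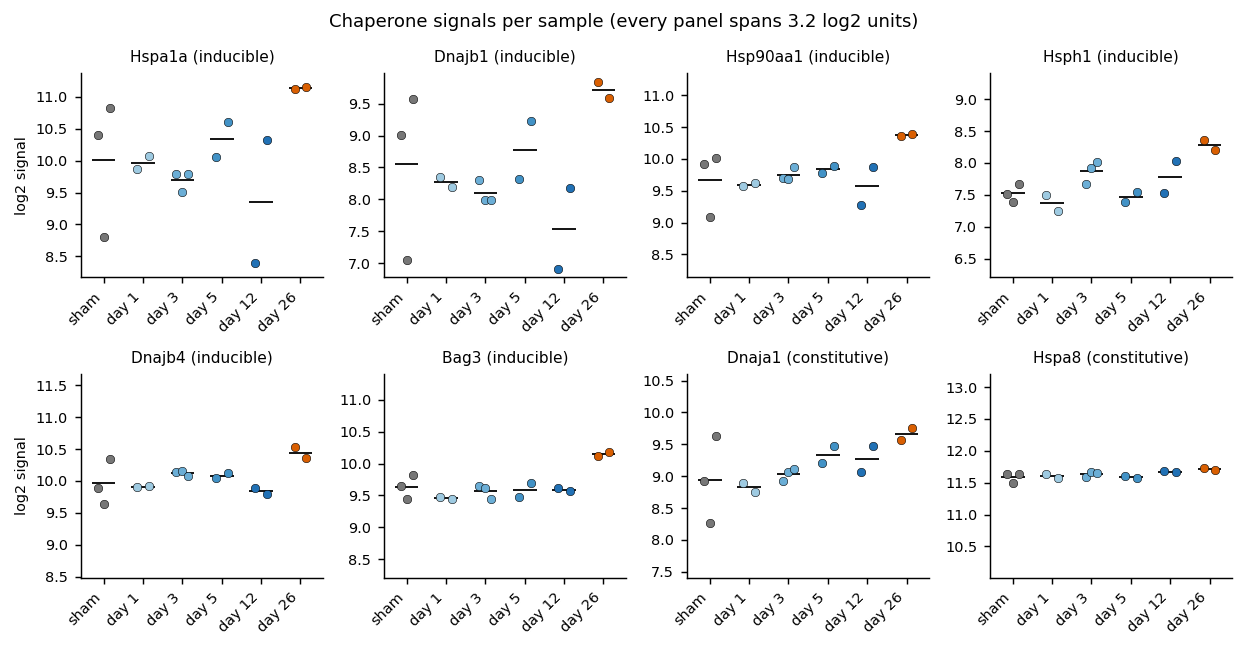
Log2 signal of the 8 measured chaperones in each of 14 samples (points; day 5 replicates 1 and 2 averaged) with group means (bars), for sham and for days 1 to 26 after protons, on axes of equal span. The day 26 samples are the highest for every gene except Dnaja1, where 1 sham sample lies between them, and sham samples of Hspa1a and Dnajb1 are spread widely.

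Hspa1a, the main stress-inducible HSP70 (gene 193740, chr17:34969359-34972156 in GRCm38.p6), varied more within groups than nearly any other gene. Its log2 signals were 10.40 and 8.79 in the sham samples of day 1 and 10.82 in that of day 3. After protons they were 9.86 and 10.07 at day 1, 9.79, 9.50 and 9.79 at day 3, 10.61, 10.61 and 10.06 at day 5, 8.39 and 10.32 at day 12, and 11.12 and 11.15 at day 26. The samples of days 1, 3 and 5 all lay inside the range of sham, 1 sample of day 12 lay below it, and both of day 26 lay above it. The sham samples alone spanned 4.07-fold and the day 12 samples 3.80-fold. The residual SD of Hspa1a was larger than that of 99.1% of genes tested.

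At day 26 Hspa1a was 1.13 ± 0.55 above sham on the log2 scale (SE, 2 against 3 samples; limma adjusted p = 0.377; 95% interval -0.07 to 2.33). At day 12 the difference was -0.65 ± 0.55 (limma adjusted p = 0.708), and it was 0.31 without proton day 12 replicate 1. The probe set annotated to both Hspa1a and Hspa1b gave the same picture: 10.61, 9.18 and 11.16 in sham, 8.76 and 10.59 at day 12, and 11.51 and 11.39 at day 26. Its correlation with the Hspa1a probe set over 14 samples was 0.991, and its day 26 mean was also 1.13 above sham. With copies this alike, signals of these probes cannot be assigned to either gene with certainty.

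Dnajb1 (chr8:83608175-83612653), the inducible HSP40 that pairs with HSP70 in refolding and disaggregation, showed the same spread. Its log2 signals were 9.02 and 7.05 in sham at day 1 and 9.58 in sham at day 3. They were 8.34 and 8.19 at day 1 after protons, 8.30, 7.99 and 7.99 at day 3, 9.22, 9.23 and 8.32 at day 5, 6.91 and 8.17 at day 12, and 9.84 and 9.59 at day 26. The lower day 26 sample exceeded the highest sham sample only in the second decimal, so the order of these neighbours is not beyond their spread. The day 26 difference was 1.17 ± 0.58 (SE; limma adjusted p = 0.384) and that of day 12 was -1.01 ± 0.58 (SE; limma adjusted p = 0.630). The latter was -0.38 without proton day 12 replicate 1, -1.64 without replicate 2 of that day, -1.76 without sham day 1 replicate 2 and -0.49 without the sham sample of day 3.

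Hsp90aa1 (chr12:110691036-110696395), the inducible HSP90 isoform, had a narrower range with the same low samples. Its log2 signals were 9.91, 9.09 and 10.01 in sham, 9.58 and 9.62 at day 1, 9.70, 9.68 and 9.87 at day 3, 9.90, 9.88 and 9.78 at day 5, 9.28 and 9.88 at day 12, and 10.35 and 10.40 at day 26. Both day 26 samples lay above all others, by 0.71 ± 0.23 over the sham mean (SE; limma adjusted p = 0.224). The other 2 probe sets of the gene gave day 26 differences of 0.59 and 0.60.

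Hsph1 (chr5:149616843-149636498), an HSP110 that acts as nucleotide exchange factor of HSP70, and Bag3 (chr7:128523583-128546981), a co-chaperone that links HSP70 to selective autophagy, had the smallest p-values of the 8 genes at day 26. Hsph1 read 7.52, 7.38 and 7.67 in sham, 7.49 and 7.25 at day 1, 7.67, 7.92 and 8.02 at day 3, 7.53, 7.55 and 7.39 at day 5, 7.53 and 8.04 at day 12, and 8.37 and 8.21 at day 26. The day 26 samples did not overlap any other group, and those of day 3 touched the top of sham. The Hsph1 difference from sham was 0.77 ± 0.16 at day 26 (SE; limma adjusted p = 0.095; 95% interval 0.42 to 1.11) and 0.35 ± 0.14 at day 3 (SE; limma adjusted p = 0.522).

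Bag3 read 9.64, 9.44 and 9.82 in sham, 9.48 and 9.45 at day 1, 9.65, 9.62 and 9.44 at day 3, 9.68, 9.71 and 9.48 at day 5, 9.61 and 9.57 at day 12, and 10.12 and 10.18 at day 26. Every sample before day 26 lay in or near the sham range and both day 26 samples lay above it. The difference was 0.52 ± 0.11 (SE; limma adjusted p = 0.0929; 95% interval 0.29 to 0.75). In the F-test for any proton day against sham, Bag3 ranked 63 and Hsph1 78 of 12102 genes (limma adjusted p of 0.199 and 0.251), and among proton days they ranked 30 and 61 (limma adjusted p of 0.225 and 0.294).

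Dnajb4 (chr3:152181580-152210432), an HSP40 that is abundant in heart and muscle, read 9.90, 9.64 and 10.35 in sham and 10.53 and 10.36 at day 26, with the other samples between 9.80 and 10.15. The lower day 26 value and the highest sham value were 10.36 and 10.35, so these neighbours do not differ beyond their spread. The day 26 difference was 0.48 ± 0.15 (SE; limma adjusted p = 0.200).

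The 2 measured constitutive genes differed from each other in how much they varied. Dnaja1 (chr4:40722468-40734965), an HSP40 of the general folding machinery, read 8.92, 8.26 and 9.63 in sham, 8.90 and 8.76 at day 1, 8.93, 9.07 and 9.11 at day 3, 9.48, 9.45 and 9.21 at day 5, 9.06 and 9.48 at day 12, and 9.56 and 9.76 at day 26. Its sham samples spanned 2.57-fold, and the sham sample of day 3 lay above the lower day 26 sample. The day 26 difference was 0.72 ± 0.28 (SE; limma adjusted p = 0.285), and 0.91 by the gene's other single-symbol probe set. A probe set annotated to both Mir207 and Dnaja1, whose correlation with the one used was 0.467, gave 0.23.

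Hspa8 (chr9:40801276-40805202), the constitutive HSC70, was among the steadiest genes tested by the probe set used here. Its log2 signals were 11.64, 11.50 and 11.64 in sham and between 11.57 and 11.73 in every proton sample, a span of 1.17-fold from lowest to highest. Its residual SD was larger than that of only 0.702% of genes. The day 26 samples, 11.73 and 11.70, were the highest, by 0.12 ± 0.05 over sham (SE; limma adjusted p = 0.331). Its other 2 probe sets gave 0.18 and -0.08, with correlations of 0.914 and 0.217 with the first. They had mean signals of 11.59 and 9.44 and spanned 0.29 and 0.43 log2 units, where the first had a mean of 11.63 and spanned 0.23. Whether a signal this high narrows the span was not tested.

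**Figure D2:**
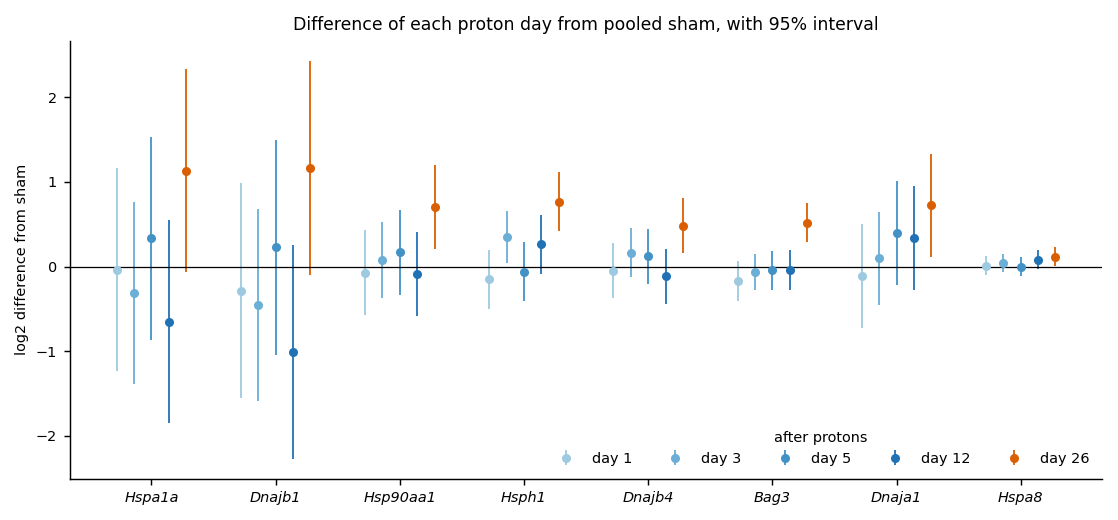
Log2 difference of each proton day from the 3 pooled sham samples for the 8 chaperones, with the 95% interval of the limma fit (bars) around each point. The day 26 points are all above 0, from 0.12 for Hspa8 to 1.17 for Dnajb1, and the intervals of Hspa1a and Dnajb1 include 0.

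All 8 chaperones had day 26 means above sham, where 58.8% of all genes did. The median difference was 0.74 over the 6 measured inducible genes and 0.42 over the 2 constitutive ones, beside 0.05 over all genes. The difference between the classes was not tested, and the constitutive median lies between 2 unlike values. At day 26, 6 of 8 had an unadjusted p under 0.05, beside 14.3% of all genes. Both day 26 samples exceeded all 3 sham samples for 7 of 8, beside 24.7% of genes, and exceeded all 12 other samples for 7 of 8, beside 4.59% of genes. The exception in both counts was Dnaja1, and Dnajb1 and Dnajb4 cleared the highest sham sample by only 0.01 each. The chaperones were chosen with earlier results of these data known, and several varied together. These counts and those of the same kind below are therefore a description. Marker means of several other cell types also lay outside their sham range in the same day 26 samples. The mean signal of 4 of 5 T cell markers was 6.04 to 6.30, against 4.65 to 4.97 in sham, and that of 4 atrial markers was 8.19 to 9.77, against 6.36 to 7.83. The mean of 3 of 4 adipocyte markers was 5.34 to 6.37 against 4.65 to 4.85, that of 8 macrophage markers 6.80 to 7.04 against 6.05 to 6.64, and that of 8 fibroblast markers 6.94 to 7.37 against 6.54 to 6.93. The mean of 2 of 5 erythroid markers was lower, at 5.83 to 6.75 against 7.07 to 8.85. The ventricular, endothelial, smooth muscle, neutrophil, B cell and mesothelial lists overlapped sham. The sham means of the T cell and adipocyte lists were below the filter on signal, 5.00. The lists that were higher at day 26 also lay above sham at day 5. Their means at day 5 were 5.66 to 5.86 for T cell, 8.06 to 8.95 for atrial and 5.31 to 5.56 for adipocyte markers. For macrophage and fibroblast markers they were 6.69 to 6.73 and 6.99 to 7.10. At day 1 the macrophage and fibroblast lists lay above sham too, at 6.92 to 7.59 and 6.98 to 7.33. The adipocyte list then lay barely above it, at 4.854 to 4.900 beside a highest sham mean of 4.846, and the T cell and atrial lists overlapped sham. The part of these cells in the day 26 values was not tested. With equal array medians the median over all genes shifted by -0.105 at day 26, and the 8 differences remained above 0, Hspa8 at 0.01.

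The day 26 differences of the most variable genes depended on 1 sham sample. Without sham day 1 replicate 2, which held the lowest sham value of all 8 genes, the difference was 0.53 in place of 1.13 for Hspa1a, 0.42 in place of 1.17 for Dnajb1, and 0.42 in place of 0.71 for Hsp90aa1. It was 0.39 in place of 0.72 for Dnaja1, 0.32 in place of 0.48 for Dnajb4 and 0.07 in place of 0.12 for Hspa8. Bag3 was then at 0.42 and Hsph1 at 0.70. The class medians without that sample were 0.42 for the inducible and 0.23 for the constitutive genes, in place of 0.74 and 0.42.

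The class medians of the earlier days were closer to 0. The inducible and constitutive medians were -0.11 and -0.05 at day 1, 0.01 and 0.07 at day 3, 0.14 and 0.20 at day 5, and -0.10 and 0.21 at day 12. Their signs were not stable: without sham day 1 replicate 2 the inducible median of day 5 was -0.14, without proton day 12 replicate 1 that of day 12 was 0.07, and without the sham sample of day 3 the constitutive median of day 1 was 0.13. The comparison of late against early proton days uses no sham sample but shares the day 26 samples. All 8 genes were above 0 in it, beside 56.8% of all genes. Its medians were 0.38 (inducible) and 0.30 (constitutive), beside 0.03 over all genes. The inducible median was 0.15 without proton day 12 replicate 2. There 3 of 8 had an unadjusted p under 0.05, beside 13.2% of genes: Bag3 at 0.36 ± 0.08 (limma adjusted p = 0.146), Hsph1 at 0.42 ± 0.12 (limma adjusted p = 0.209) and Dnaja1 at 0.53 ± 0.21 (limma adjusted p = 0.319). For any difference among the proton days, 5 of 8 had an unadjusted p under 0.05, beside 8.43% of genes. Hspa8 turned to -0.02 in late against early days with equal array medians.

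**Figure D3:**
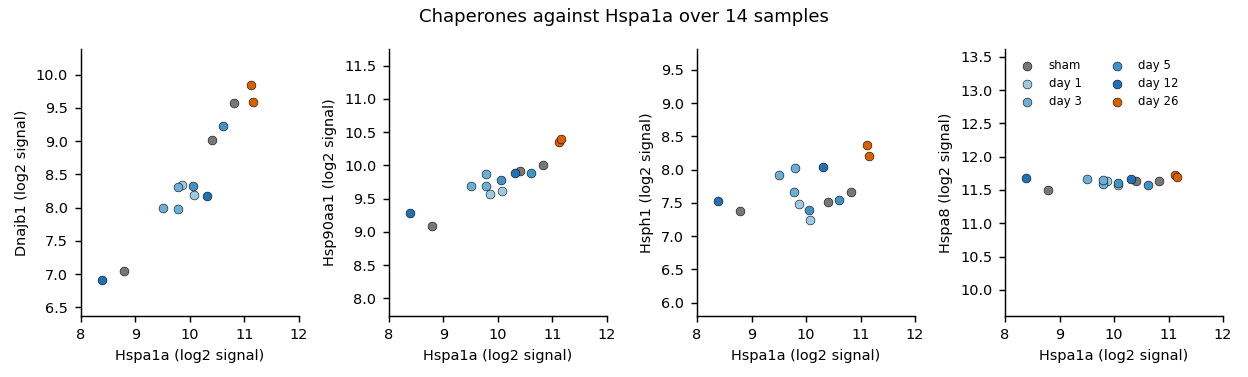
Log2 signals of Dnajb1, Hsp90aa1, Hsph1 and Hspa8 against that of Hspa1a in 14 samples, coloured by group, with vertical axes of equal span. Dnajb1 and Hsp90aa1 follow Hspa1a across sham and proton samples alike (r of 0.962 and 0.926), while Hspa8 is nearly flat (r of 0.393).

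Over the 14 samples the chaperones differed in how closely they followed Hspa1a. Of 12101 other genes, Dnajb1 had the highest Pearson correlation with Hspa1a and Hsp90aa1 the second highest. For Dnajb1, r was 0.962 and Spearman's rho 0.899 (permutation p = 1e-05 for r, the smallest that 100000 resamples can give, and 5e-05 for rho; adjusted over 14 relations 0.00014 and 0.00035). For Hsp90aa1, r was 0.926 and rho 0.899 (permutation p = 2e-05 and 4e-05; adjusted 0.00014 and 0.00035). Without the 2 samples farthest from the median, proton day 12 replicate 1 and sham day 1 replicate 2, r was 0.933 and 0.883, and over deviations from group means it was 0.937 and 0.962. The 2 values of a point share an array, a cell preparation and a group. The permutations shuffled samples across groups, so these p-values and those below also reflect differences between groups. No p was computed for the correlations within groups.

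Dnaja1 followed less closely, with r of 0.738 and rho of 0.684 (permutation p = 0.00258 and 0.00907; adjusted 0.012 and 0.0317), 0.794 without those 2 samples and 0.833 within groups. Dnajb4 had r of 0.686 and rho of 0.538 (permutation p = 0.00701 and 0.0496; adjusted 0.0228 and 0.116), 0.592 without them and 0.539 within groups. Bag3 had r of 0.671 and rho of 0.653 (permutation p = 0.00976 and 0.0141; adjusted 0.0228 and 0.0394), 0.836 without them and 0.533 within groups. For Hsph1, r of 0.478 and rho of 0.437 did not pass (permutation p = 0.0835 and 0.12; adjusted 0.146 and 0.213), nor did r of 0.393 and rho of 0.284 for Hspa8 (permutation p = 0.165 and 0.325; adjusted 0.231 and 0.379). Within groups these r were 0.682 and 0.485.

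The 10 other genes most like Hspa1a over the 14 samples, by Pearson correlation, were Srsf3 (0.860), Slc5a3 (0.834), Serpinh1 (0.821), Cd4 (0.809), Arfgap3 (0.808), Pfn1 (0.805), Ccdc117 (0.800), Fzd5 (0.798), Gadd45b (0.797) and Snord14e (0.783). Serpinh1 encodes HSP47, the collagen chaperone of the endoplasmic reticulum, and its lowest and highest samples were sham day 1 replicate 2 and proton day 26 replicate 1, at 8.78 and 10.08. Slc5a3 encodes an inositol transporter and Srsf3 a splicing factor. These are given as a description, with no test.

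Markers of other cells were compared with Hspa1a in the same way. The 4 measured of 5 T cell markers (Cd3e, Cd3g, Cd8a and Cd4) had a mean that correlated with Hspa1a (r of 0.67 and rho of 0.697; permutation p = 0.00877 and 0.00739; adjusted 0.0228 and 0.0317; r of 0.715 without the 2 farthest samples and 0.533 within groups), and Cd4 is also among the 10 genes just named. The mean of the 4 atrial markers (Myl7, Nppa, Sln and Myl4) had r of 0.597 and rho of 0.437 (permutation p = 0.0245 and 0.122; adjusted 0.0491 and 0.213). Without the 2 farthest samples that r was 0.263, so the relation rests on them, and within groups it was 0.507. Several of these markers had low signals beside the filter at 5.00. The lowest T cell signal was 2.83 for Cd3g and the lowest atrial signal 2.78 for Sln, and neither of these genes passed the filter. Cd8a and Cd4 passed it with means of 5.14 and 5.30 but fell to 4.04 and 4.16, and the sham mean of Cd8a was 4.62. Cd3e stayed at 5.50 or above.

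Lists of ventricular, endothelial, fibroblast and macrophage markers had r of -0.0334, 0.166, 0.275 and 0.222 with Hspa1a and did not pass (permutation p = 0.909, 0.571, 0.343 and 0.444; adjusted 0.909, 0.615, 0.436 and 0.518; rho of -0.158, 0.152, 0.332 and 0.385 with permutation p = 0.586, 0.603, 0.247 and 0.178, adjusted 0.603, 0.603, 0.325 and 0.276). Within groups these r were 0.259, 0.15, 0.295 and 0.264, and without the 2 farthest samples they were -0.436, 0.197, 0.158 and 0.128. The 15 immediate early genes, among them Fos, Jun and Egr1, which many stimuli induce within minutes, had a mean signal of 7.50 to 8.37 in sham and 7.73 to 8.51 at day 26. Their r with Hspa1a was 0.455 and rho 0.327 (permutation p = 0.103 and 0.255, adjusted 0.16 and 0.325). That r was 0.182 without the 2 farthest samples and 0.679 over deviations from group means.

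**Figure D4:**
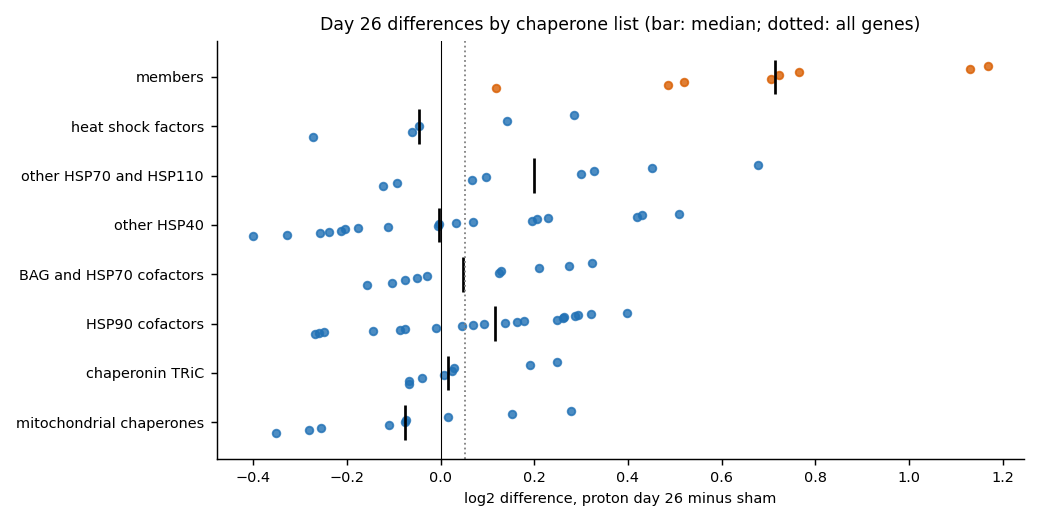
Log2 difference of proton day 26 from sham for single genes (points) of the 8 measured chaperones and of 7 lists of related genes, with each list's median (bars) and the median over all genes (dotted line). The chaperones described here have a median of 0.71, while the other lists lie around 0, with medians from -0.07 to 0.20. Gene lists and chaperones were chosen with earlier results of these data known, so this is a description.

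No gene of the wider chaperone system passed the test either. Of 84 genes in 7 lists of heat shock factors, other HSP70, HSP110 and HSP40 proteins, co-chaperones, the cytosolic chaperonin and mitochondrial chaperones, 78 were tested and 0 passed in any contrast by limma, with 17 at an unadjusted p under 0.05 at day 26 (21.8%, beside 14.3% of all genes at that p and 0.0413% past the adjusted threshold). At day 26, 42 of 78 were above sham, with a median of 0.03, beside 58.8% and 0.05 over all genes. Hsf1 was not analysed here, and of the other heat shock factors Hsf2 was at -0.27 ± 0.12 and Hsf4 at 0.28 ± 0.13 (limma adjusted p of 0.342 and 0.355).

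Among other HSP70 genes, Hspa1l, the testis-enriched neighbour of Hspa1a, was at 0.68 ± 0.28 and Hspa13, of microsomes, at 0.45 ± 0.15 at day 26 (limma adjusted p of 0.300 and 0.240). Of other HSP40 genes, Dnajc8 was at -0.40 ± 0.12 and Dnaja4 at 0.43 ± 0.22, the latter with a correlation of 0.677 with Hspa1a (limma adjusted p of 0.198 and 0.390). Of HSP70 cofactors, St13, which encodes the HSP70-interacting protein HIP, was at 0.32 ± 0.12 and Synpo2, a Z-disc partner of BAG3, at -0.03 ± 0.09 (limma adjusted p of 0.268 and 0.897). Of HSP90 cofactors, Stip1, the adaptor HOP between HSP70 and HSP90, was at 0.18 ± 0.09 and Itgb1bp2, the muscle protein melusin, at -0.26 ± 0.08 (limma adjusted p of 0.381 and 0.184). Of the chaperonin, Cct3 was at -0.04 and Cct7 at 0.25, and of the mitochondrial genes, Hspd1 (HSP60) was at 0.28 ± 0.08 and Grpel2 at -0.28 ± 0.13 (limma adjusted p of 0.861, 0.353, 0.192 and 0.350). Some of these genes had their largest difference from sham at another day. Synpo2, Cct3 and Grpel2 were at -0.33, -0.21 and -0.30 at day 5. Dnaja4 and Itgb1bp2 were at -0.44 and -0.27 at day 12, and Stip1 was at -0.25 at day 1.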

How the data were processed

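The deposited table holds log2 signals of 34760 probe sets on 15 Affymetrix arrays, with values from 0.123 to 12.94; the submitters' processing notes name MAS5 with no version, and the background correction and scaling by the authors are not given in the sources used here. The values were used as deposited. Of the probe sets, 21640 carried 1 symbol, 1321 several and 11799 none in the annotation; the highest-mean single-symbol probe set stood for a gene, kept where that mean exceeded the median of all probe sets, 5.00. Gene lists and the 10 chaperones were chosen with earlier results of these data known. Named genes were the 10 chaperones, the 2 of each related list with the smallest p of the F-test over proton days, and the 10 genes most correlated with Hspa1a.

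Models were fitted with limma 3.58.1 (lmFit, eBayes with a variance trend) in R 4.3.3 on the 14 samples of the 6 groups (8 residual degrees of freedom) and adjusted by Benjamini-Hochberg over 12102 genes; the procedure was tested on simulated data. Correlations used permutation tests (2-sided, 100000 resamples) with scipy 1.17.1 and numpy 2.4.6 under Python 3.11.15. Promoters came from RefSeq, GRCm38.p6. Samples were not paired by their replicate numbers, since only 10 of 31 same-number pairs had a correlation of deviations above 0.1. Alternatives covered normalization, filter, probe set, control, variance model, array weights, covariate, block and leaving out each array.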

Additional observations from a re-analysis of the deposited data

How the results depend on the processing

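Over all alternatives run, 0 chaperones passed at days 1, 3, 5 and 12 and for all proton days against sham. At day 26 the count of 0 became 2 with array weights (Bag3 and Hsph1; 309 of all 12102 genes), 1 with only the groups compared (Hsph1; 46), 2 with the marker score as a covariate (Bag3 and Hsph1; 152) and 2 with the replicate block (Bag3 and Dnajb4; 5). Leaving out 1 array gave 0 to 1, with 1 (Hsph1) without proton day 12 replicate 1 or 2 (29 genes each). For any proton day against sham it became 2 with array weights, with the replicate block and with the covariate (55, 21 and 163 of all genes). For late against early days it became 1 with the covariate (349 of all genes), and among proton days 1 with the replicate block and 2 with the covariate (14 and 88). The replicate block used 15 separate arrays without the sham day 3 sample, whose title has no number. The cause of these changes was not tested.

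Hspa1a in late against early days was between -0.068 and 0.90 when 1 array was left out, with -0.068 without proton day 12 replicate 2. Its day 12 difference was between -1.61 and 0.31, with 0.31 without proton day 12 replicate 1. Hspa8 in late against early days was -0.019 with equal array medians. Of the values for single chaperones, 520 kept direction and side of the threshold, 10 came to pass it and 3 reversed; the class medians moved by less than the SD of the sham samples' class means (0.590 inducible, 0.375 constitutive), which is wide. Leaving out 1 array put the day 26 medians between 0.42 and 0.86 (inducible) and between 0.23 and 0.60 (constitutive), the inducible late against early median between 0.15 and 0.50, and those of days 1, 3, 5 and 12 and of all proton days on either side of 0, except the constitutive medians of days 5 and 12. Counts over all genes ranged over the settings from 0 to 309 at day 26 (5 as reported), 0 to 349 for late against early days (1), 0 to 91 at day 3 (1), 0 to 47 at day 5 (6), 0 to 163 for any proton day (3), 0 to 24 for all proton days (3) and 0 to 88 among proton days (0). Groups of 2 or 3 arrays limit what any of these tests can detect.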

Other observations

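Small nucleolar RNAs encoded in introns of Hspa8 were measured beside the messenger itself. Snord14e, among the 10 genes most like Hspa1a, had a day 26 difference of 0.90 (limma adjusted p = 0.240), with its lowest sample, 8.23, in sham day 1 replicate 2 and its highest, 10.02, in proton day 26 replicate 2. The 2 probe sets annotated to Snord14d, Snord14c and Hspa8 together were 0.37 and 0.61 above sham at day 26, with correlations of 0.169 and 0.465 with the Hspa8 probe set used here, whose own difference was 0.12. These values are given without a test of how they relate.

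Serpinh1 had a day 26 difference of 0.91 (limma adjusted p = 0.110), and a correlation with Hspa1a of 0.948 over deviations from group means. Srsf3 had 0.43 at day 26 (limma adjusted p = 0.248) and 0.940 within groups.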
